A study of Mus musculus with 3 samples.

Results

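The 9 genes Yap1, Wwtr1, Tead1, Tead2, Tead3, Tead4, Lats1, Lats2 and Amotl2, components and partners of the Hippo signalling pathway, were examined in a chromatin immunoprecipitation sequencing (ChIP-seq) study of mouse beige adipocytes, out of 21031 protein-coding genes in all. Members were chosen by name, and each peak that the deposited annotation assigned to 1 of these names was taken: 14 of 16937 Foxp4 peaks and 32 of 17564 H3K27ac peaks. Foxp4 is a forkhead transcription factor, and H3K27ac, acetylated lysine 27 of histone H3, marks active promoters and enhancers.

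Both ChIP libraries came from thermogenic (beige) fat cells of the C57BL/6 strain, grown out of the stromal-vascular fraction of the inguinal fat pad. The labels state no genetic change or drug contrast between libraries, and no age, sex or number of mice was found in the labels. All cells passed through the same culture: 3 days of growth and then confluence, 48 h in an induction medium with troglitazone (5 µM), T3 (50 nM), dexamethasone (1 µM), isobutylmethylxanthine (0.5 mM) and insulin (5 µg/ml), and 6 days with insulin, T3 and troglitazone. There was 1 Foxp4 and 1 H3K27ac library, so no value below has a replicate error and no difference between genes was tested. The labels name the Foxp4 antibody alike for all libraries and name no H3K27ac antibody, so the H3K27ac list is described by its label. An input library was not used here.

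The Hippo pathway is a kinase cascade that restrains tissue growth. Mst kinases with the scaffold Sav1 activate Lats kinases, which phosphorylate the coactivators Yap (Yap1) and Taz (Wwtr1) and keep them out of the nucleus; unphosphorylated Yap and Taz enter it and bind DNA through Tead factors. In fat cell biology Taz is known as a coregulator that represses Pparg and adipogenesis. Angiomotin proteins such as Amotl2 hold Yap at cell junctions, and Amotl2 and Lats2 are themselves known targets of Yap and Taz.

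The 1 place among these genes where the 2 lists met was the promoter of Lats2, so its sequence is shown first, beside the promoter of its paralogue Lats1, which had H3K27ac alone, and that of Tead2, which had a peak in neither list. Each run comes from the RefSeq promoter table on GRCm38.p6, the assembly of mm10, reads 5′ to 3′ in the direction of the gene and ends before the first base of the RefSeq gene span. The runs hold 161, 241 and 250 bases. They lie at chr14:57746213-57746373 (minus strand), chr10:7680959-7681199 (plus strand) and chr7:45215542-45215791 (plus strand). Capitals mark bases inside a Foxp4 peak, here the whole Lats2 run.
Lats2: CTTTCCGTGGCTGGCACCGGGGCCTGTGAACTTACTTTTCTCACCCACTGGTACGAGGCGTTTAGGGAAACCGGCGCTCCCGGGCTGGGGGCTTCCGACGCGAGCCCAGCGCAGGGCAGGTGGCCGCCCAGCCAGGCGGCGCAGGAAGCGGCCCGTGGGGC
Lats1: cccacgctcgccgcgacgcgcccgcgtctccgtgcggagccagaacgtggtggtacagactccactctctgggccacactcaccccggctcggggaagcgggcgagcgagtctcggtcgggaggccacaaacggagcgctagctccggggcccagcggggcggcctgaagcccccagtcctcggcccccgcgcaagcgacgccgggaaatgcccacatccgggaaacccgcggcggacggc
Tead2: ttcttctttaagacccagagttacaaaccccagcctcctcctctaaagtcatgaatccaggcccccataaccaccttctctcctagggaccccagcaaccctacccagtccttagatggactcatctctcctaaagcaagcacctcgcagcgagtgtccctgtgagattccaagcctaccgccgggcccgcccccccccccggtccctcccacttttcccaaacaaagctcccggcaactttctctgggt
All bases of the Lats2 and Lats1 runs lay inside an H3K27ac peak, and none of the Tead2 run did. The GC content was 70.8% for Lats2, 73.9% for Lats1 and 57.2% for Tead2.

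Some markers of the labelled cell type had an H3K27ac peak and others had none, where 37.5% of all protein-coding genes had one. Of 12 adipocyte genes 7 had an H3K27ac peak (Fabp4, Plin1, Pparg, Cebpa, Lipe, Cidec and Ppargc1a), and Adipoq, Ucp1, Cidea, Dio2 and Prdm16 had none. An H3K27ac peak was assigned to 5 of 6 progenitor markers, 2 of 4 macrophage markers, 3 of 4 endothelial markers and 0 of 4 skeletal muscle markers. Dpp4 of the progenitor markers, Adgre1 and Ptprc of the macrophage markers and Tek of the endothelial ones had none. These counts take peaks at any distance from the gene. An H3K27ac peak centred within 1000 bp of a transcription start was assigned to 5 of 12 adipocyte and 2 of 6 progenitor markers. Such a peak was assigned to 1 of 4 macrophage, 0 of 4 endothelial and 0 of 4 skeletal muscle markers, against 26.0% of all genes. The part of other cell types in the peaks of the Hippo genes was not tested.

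Acetylation was found at most of these genes. An H3K27ac peak was assigned to 8 of the 9, against 37.5% of all protein-coding genes, and an H3K27ac promoter peak, whose centre lies within 1000 bp of the transcription start site (TSS), to 7 of the 9, against 26.0%. Tead2 had no peak at all, and Amotl2 had peaks without a promoter peak by this rule. At least 2 H3K27ac peaks were assigned to 6 genes (Yap1, Wwtr1, Tead1, Tead4, Lats2 and Amotl2), against 15.0% of all genes. The same 6 genes were those with a Foxp4 peak, and 36.6% of all genes had one. Peaks of both lists were thus assigned to 6 of the 9, against 20.4% of all genes. These 6 genes spanned 16.3 to 227 kb (median 73.2 kb), and Lats1, Tead3 and Tead2, which had no Foxp4 peak, spanned 35.3, 19.1 and 17.7 kb. Over all protein-coding genes the median span was 17.7 kb, and over those with a Foxp4 peak 31.2 kb. The part of gene length in these counts was not tested.

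**Figure D1:**
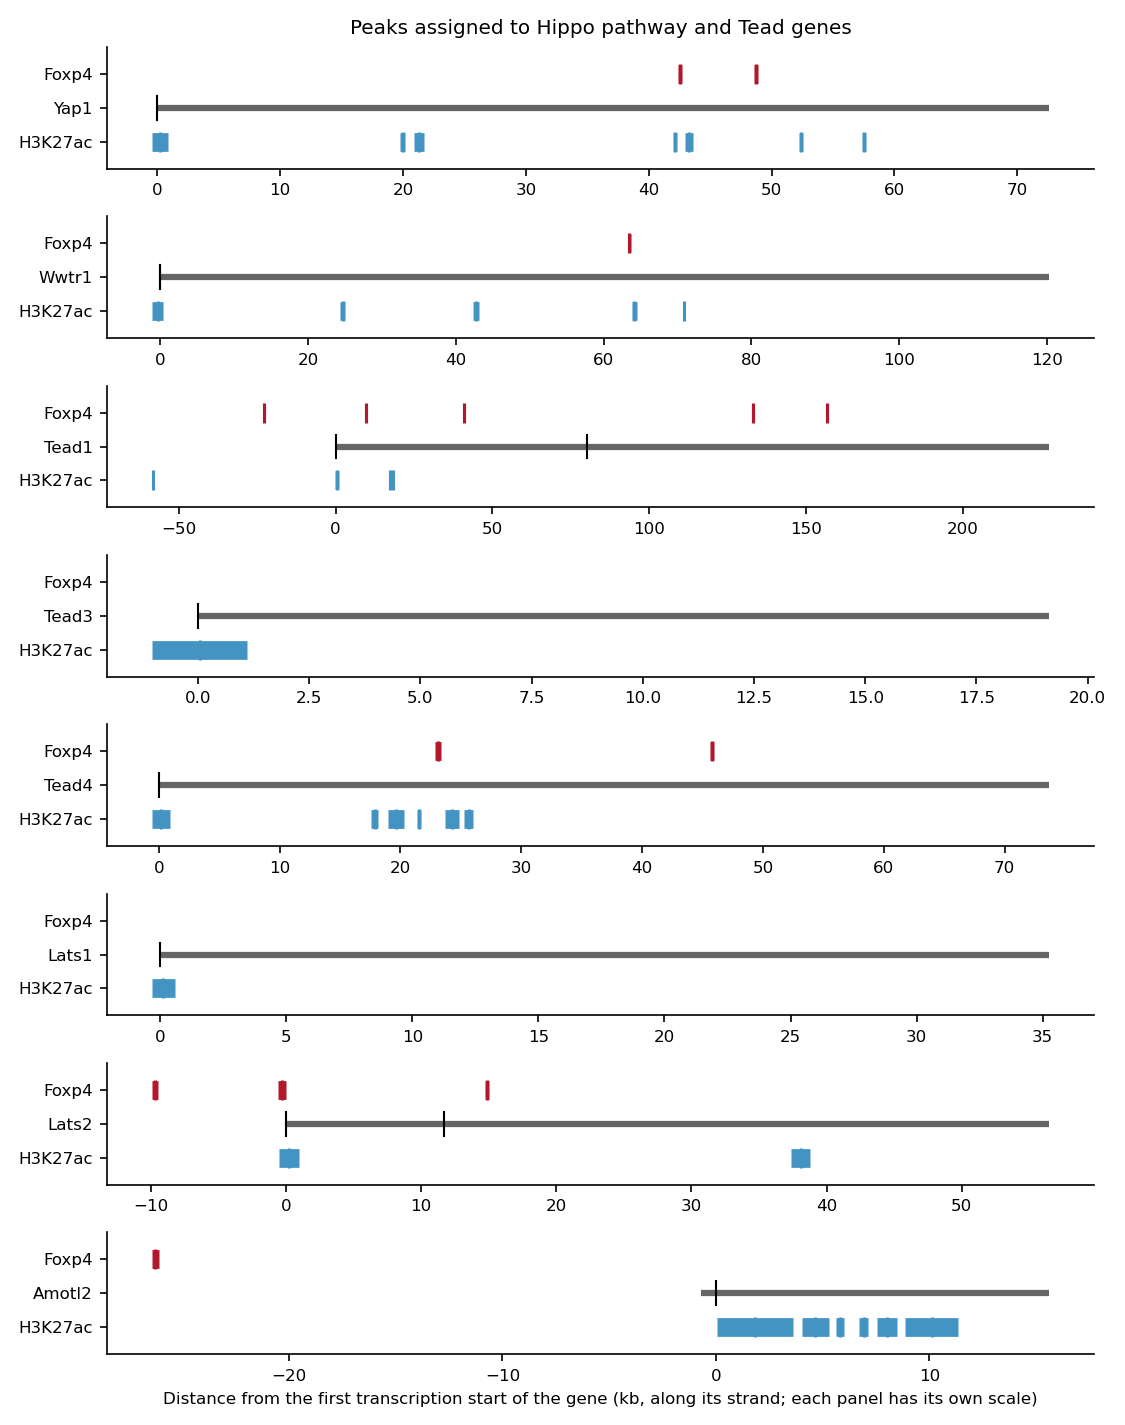
Peaks assigned to the 8 genes with any peak, drawn by distance from the first transcription start (kb, along the strand of the gene, each panel with its own scale). Grey bars are the RefSeq gene spans, black ticks transcription starts, red bars Foxp4 peaks and blue bars H3K27ac peaks, and narrow peaks are drawn at a minimum visible width; the 2 lists share a position only at the start of Lats2.

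Of the 7 promoter peaks, 6 scored above the upper quartile of the H3K27ac list, and that of Lats2 lay within its middle 50%. The deposited score of a peak is the authors' own whole number from peak calling, and it ranks peaks within a list. Over the whole H3K27ac list the median score was 40 with quartiles of 31 and 56, and over its promoter peaks the median was 51. The 7 promoter peaks of the Hippo genes scored 45 to 114 with a median of 79, and the 25 H3K27ac peaks elsewhere scored 21 to 73 with a median of 35, where such peaks of the list had a median of 37. Promoter peaks of the genes were 890 to 2136 bp wide, with a median of 1493 bp against 660 bp for promoter peaks of the list. Of the 32 H3K27ac peaks 7 lay at promoters, against 36.5% of the list, and 22 were classed as intronic, against 45.8% of the list.

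**Figure D2:**
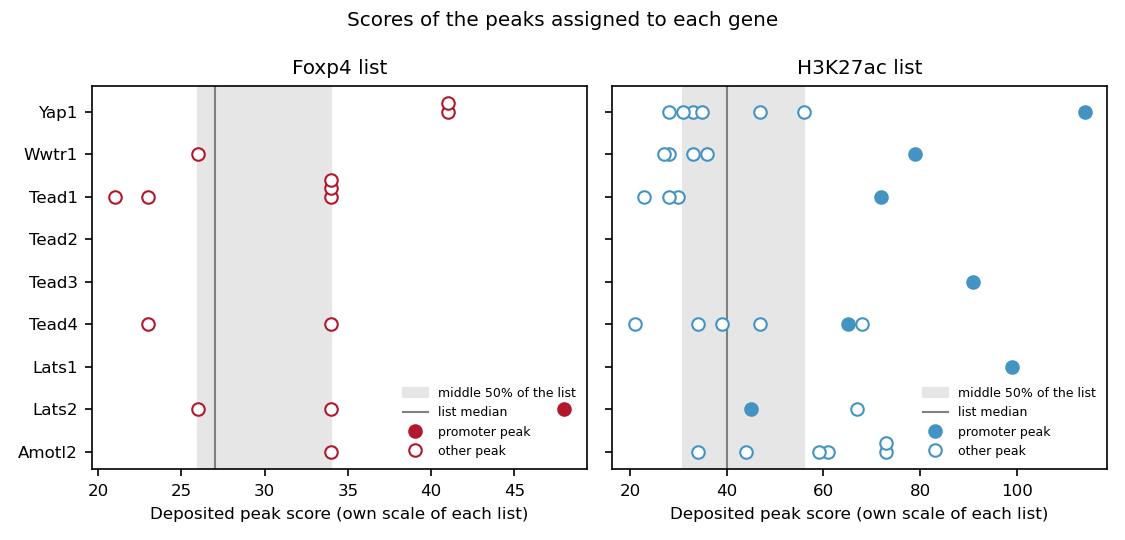
Deposited score of every peak assigned to each gene, Foxp4 left and H3K27ac right, each on the scale of its own list; filled points are promoter peaks, open points other peaks, tied points are stacked, and the grey band and line are the middle 50% and the median of the list. H3K27ac promoter peaks lie above the band in 6 of 7 genes, and the highest Foxp4 point is the Lats2 promoter peak with a score of 48.

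Both coactivator genes carried an acetylated promoter and further acetylated sites in introns. Yap1, on the minus strand at chr9:7931999-8004638, had the strongest H3K27ac peak of the 9 genes, with a score of 114 at chr9:8003698-8005016, above 97.5% of the list. It lay over exon 1 with its centre 239 bp downstream of the TSS. The other 6 H3K27ac peaks of Yap1 lay in introns 2 to 5 and scored 28 to 56. Wwtr1, encoding Taz, on the minus strand at chr3:57455644-57575910, had a promoter peak of score 79 at chr3:57575481-57576973, 317 bp upstream of the TSS by its centre and above 90.1% of the list. Its 4 other H3K27ac peaks all lay in intron 2, between 24682 and 70858 bp downstream of the TSS, with scores of 27 to 36. These intronic scores of Wwtr1 lay below the list median of 40, whereas 2 of the 6 intronic peaks of Yap1, with scores of 47 and 56, lay above it.

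Foxp4 peaks assigned to the coactivator genes lay deep in introns and outside acetylated sites, 80 to 3294 bp from the nearest. Yap1 had 2, both in intron 4 and both of score 41, above 85.3% of the Foxp4 list. One, at chr9:7961881-7962189 and 42561 bp downstream of the TSS, fell between 2 H3K27ac peaks of scores 56 and 28. It was separated from them by 242 and 80 bp. Foxp4 peaks outside H3K27ac with an H3K27ac peak within 1000 bp on each side made up 0.236% of the Foxp4 list. Of the 14 Foxp4 peaks of the Hippo genes, this 1 was so placed. With 1 peak in the count, nothing is read from that share. The other Foxp4 peak of Yap1, at chr9:7955661-7956032, lay 3294 bp from the nearest H3K27ac peak. The single Foxp4 peak of Wwtr1, of score 26 at chr3:57512262-57512579 in intron 2, lay 141 bp from an H3K27ac peak of score 27. That score of 26 exceeded 23.8% of the list.

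The 4 Tead genes, which encode the DNA-binding partners of Yap and Taz, differed from one another. Tead1, at chr7:112679356-112906784 on the plus strand, had an H3K27ac promoter peak of score 72 at chr7:112679062-112680277, over the first exon. Tead3, on the minus strand at chr17:28331671-28350805, had a single H3K27ac peak, of score 91 and the widest promoter peak of the 9 genes at 2136 bp (chr17:28349701-28351836). Tead4, on the minus strand at chr6:128227143-128300813, had a promoter peak of score 65 at chr6:128299852-128301349. Tead2, at chr7:45215792-45233468, had no peak assigned and none within its span in either list. Absence here means that no peak was called in a library whose depth is unknown.

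Beyond the promoters, Tead4 held a group of 5 H3K27ac peaks in intron 1, centred 17857 to 25646 bp downstream of the TSS. They scored 68, 39, 21, 47 and 34 in order from the TSS. The first of them, annotated to a LINE repeat, scored slightly higher than the promoter peak. Tead1 had 3 further H3K27ac peaks, 2 of them in intron 1 over simple repeats with scores of 23 and 28 and 1 of score 30 at 58141 bp upstream of the TSS. All 3 scored below the list median of 40, as did 3 of the 5 intronic peaks of Tead4.

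Tead1 had 5 Foxp4 peaks, the most of the 9 genes, and the longest span, 227 kb. Those in introns scored 34 (chr7:112688811-112689307, intron 1), 34 (chr7:112720194-112720612, intron 1), 23 (chr7:112812186-112812545, intron 2) and 34 (chr7:112835619-112836128, intron 2). The one upstream of the gene, 22963 bp from the TSS, scored 21. None of the 5 came closer than 7205 bp to an H3K27ac peak. Tead4 had 2 Foxp4 peaks, of score 34 in intron 1 (chr6:128277469-128277924) and of score 23 over a SINE repeat in intron 2 (chr6:128254859-128255163). The peak in intron 1 lay inside the acetylated group, 335 bp from the H3K27ac peak on one side and 1204 bp from that on the other, and overlapped neither.

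The paralogous kinase genes Lats1 and Lats2 differed in these lists. Lats1, at chr10:7681200-7716461 on the plus strand, had the second highest H3K27ac score of the 9 genes, 99 at chr10:7680898-7681787, centred 133 bp downstream of the TSS and above 95.5% of the list. It had no other H3K27ac peak and no Foxp4 peak, and the nearest Foxp4 peak lay 159885 bp from that promoter peak. Lats2, at chr14:57689662-57746212 on the minus strand, had an H3K27ac promoter peak of score 45 (chr14:57745167-57746661), the lowest of the 7 promoter peaks. It had a second one, of score 67 in intron 2 (chr14:57707370-57708722), so that its intronic peak scored higher than its promoter peak.

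The Foxp4 peak at the Lats2 promoter was the highest-scoring Foxp4 peak of the 9 genes. It had a score of 48, above 95.0% of the Foxp4 list, and was 537 bp wide (chr14:57746146-57746682), with its centre 291 bp upstream of the TSS. Of its width, 516 bp lay inside the H3K27ac promoter peak, so that it covered the upstream end of the acetylated region. Of the 9 genes, 1 had a Foxp4 promoter peak, against 6.77% of all genes, and 1 had a Foxp4 peak overlapping H3K27ac, against 5.36%. With 1 gene in each count, nothing is read from either share. Lats2 had 2 further Foxp4 peaks, of score 34 at chr14:57731065-57731376 over a LINE repeat, 3198 bp downstream of a second transcript start, and of score 26 at chr14:57755617-57756013 over an LTR repeat, 9692 bp upstream of the gene. These lay 13790 and 8955 bp from the nearest H3K27ac peak.

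Amotl2, the angiomotin gene, was acetylated along most of its length. The gene lies on the plus strand at chr9:102717091-102733418. Its 6 assigned H3K27ac peaks ran from chr9:102717839 to chr9:102729173 and covered 9.04 of these 11.3 kb (79.8%), with gaps of 355 to 693 bp between them. In order from the TSS they scored 61, 73, 44, 34, 73 and 59, and 5 of the 6 exceeded the list median of 40. The first was 3558 bp wide, wider than 99.7% of the list. It began 35 bp downstream of the annotated TSS, and its centre lay 1813 bp downstream, which is why Amotl2 was not counted among the acetylated promoters. The only Foxp4 peak of Amotl2, of score 34 at chr9:102691397-102691695, was intergenic, 26258 bp upstream of the TSS and 26143 bp from the nearest H3K27ac peak.

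Over the 9 genes, Foxp4 peaks lay mostly in introns. Of the 14 Foxp4 peaks 10 lay in introns, against 43.5% of the Foxp4 list, 3 were intergenic and 1 was at a promoter. Scores ranged from 21 to 48 with a median of 34, against a list median of 27. Overlap with H3K27ac was found for 1 of the 14 peaks, a share near the 8.21% of the whole Foxp4 list. An H3K27ac peak lay within 1000 bp of 4 of the 14, overlap included, against 12.9% of the list. These 4 were 1 peak each at Lats2, Yap1, Wwtr1 and Tead4. Scores at 6 values (21, 27, 34, 41, 49 and 57) recur in the Foxp4 list far more often than their neighbours and hold 73.1% of it, and 9 of the 14 peaks had such a score. The 5 others were 1 of Tead1, 1 of Tead4, 1 of Wwtr1 and 2 of Lats2, the promoter peak included.

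**Figure D3:**
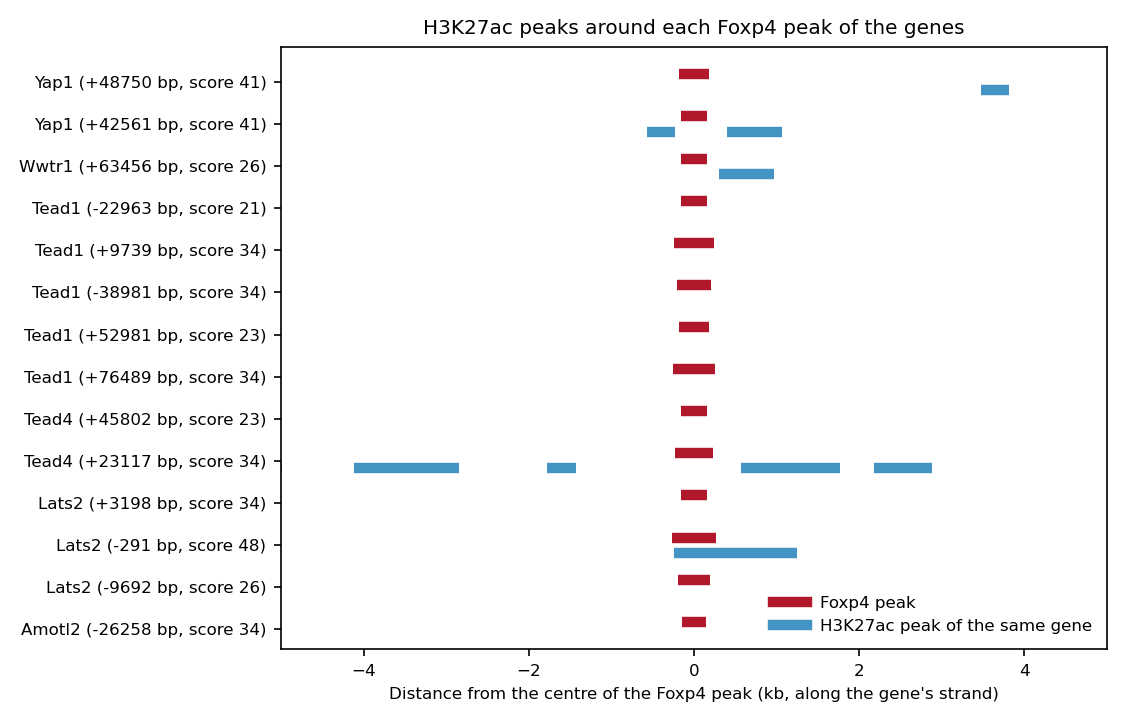
The 14 Foxp4 peaks (red, named by gene, deposited distance to the nearest TSS and score) with the H3K27ac peaks of the same gene (blue) within 5 kb, drawn to scale by distance from the centre of the Foxp4 peak (kb, along the strand of the gene). Only the Lats2 promoter peak overlaps a blue bar, and at Yap1, Wwtr1 and Tead4 the nearest bar lies 80, 141 and 335 bp away.

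RefSeq promoter windows of 300 bases, 250 before and 50 after the TSS, were searched for the forkhead core TGTTTAC (reverse strand GTAAACA) and the core of the Tead motif GGAATG (reverse strand CATTCC). Neither motif contains the other. Windows were matched for 7 of the 9 genes, not for Tead1 and Tead4. The forkhead core was in none of the 11 windows of these genes, the Lats2 promoter included, and was in 3.65% of all 32851 windows. With so low a share, nothing is read from this absence. The Lats2 promoter window held 228 bp of the 537 bp Foxp4 peak, and the rest of that peak was not searched. The Tead core was in a window of 5 of the 7 genes (Yap1, Wwtr1, Lats2, Tead3 and Amotl2) and of 15.1% of the 16853 protein-coding genes with a window. By window it was in 7 of the 11, some of which overlap each other, and in 14.7% of all windows. Stretches of 30 bases around 1 match in each of the 5 genes are shown, since the pathway ends at Tead-bound DNA; capitals mark the matched core, on the strand of the gene.
Yap1: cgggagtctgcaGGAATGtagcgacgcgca
Wwtr1: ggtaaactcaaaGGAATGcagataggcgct
Lats2: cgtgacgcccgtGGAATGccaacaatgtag
Tead3: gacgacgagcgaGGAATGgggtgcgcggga
Amotl2: ctgaaactctcaCATTCCtggcatagcagc
They lie at chr9:8004720-8004749, chr3:57576029-57576058, chr14:57746102-57746131, chr17:28350970-28350999 and chr9:102717727-102717756. The first 4 fell inside H3K27ac peaks, and the Amotl2 match ended before the first acetylated base. The Lats2 match, 4 bases downstream of the TSS, lay inside the H3K27ac peak and outside the Foxp4 peak, which began 23 bp upstream of the TSS. A match of letters shows no binding of a Tead factor, and no Tead library was part of the study.

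Other genes of the pathway were taken as a list of 41 from textbook knowledge. A Foxp4 peak was assigned to 26 of the 41, where 36.6% of all protein-coding genes had one, and an H3K27ac peak to 26, where 37.5% had one. These counts take peaks at any distance. With peaks within 100 kb of the TSS alone, they were 24 for Foxp4 and 24 for H3K27ac. The part of gene length was not tested here either. An H3K27ac promoter peak was assigned to 19, against 26.0%, and a Foxp4 promoter peak to 5, against 6.77%. Among the core kinases and scaffolds, 3 of 5 had a Foxp4 peak, against 36.6% of all genes, and 2 of 5, Stk3 and Sav1, an H3K27ac promoter peak, against 26.0%. Mob1a and Mob1b, which encode Lats coactivators, had neither kind of peak. Of 20 upstream regulators, 13 had a Foxp4 peak, against 36.6% of all genes, and 13 an H3K27ac peak, against 37.5%. Taok1, a kinase that acts on the Mst kinases, had the highest H3K27ac score of the list, 169. Map4k4, a kinase that can phosphorylate Lats, followed with 158 and had 6 Foxp4 peaks. The highest-scoring of these, with the recurrent score of 49, lay in a LINE repeat 22681 bp upstream of the TSS. Of the angiomotins, Amotl1 had 5 H3K27ac peaks with a top score of 97 and 2 Foxp4 peaks, and the X-linked Amot had none.

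Limd1, encoding a LIM protein that binds Lats, had the highest Foxp4 score of the list, 418. That peak lay 16686 bp upstream of the TSS of Limd1, and the annotation places it in the 3' UTR of the neighbouring gene Lars2. The highest Foxp4 score among the other genes of the list was 57, at Vgll4, and the upper quartile of all Foxp4 peaks was 34. The Foxp4 peak in exon 1 of Limd1 scored 26. Whether the score of 418 reflects Foxp4 binding or concerns Limd1 was not tested. The Tead cofactor genes Vgll3 and Vgll4 had 7 and 8 H3K27ac peaks and 6 and 3 Foxp4 peaks, and Vgll1 and Vgll2 had none. The highest Foxp4 score of Vgll4 was 57, 1 of the scores that recur in the Foxp4 list. That peak lay 133790 bp downstream of the TSS of Vgll4, annotated to intron 19 of 19 of a transcript. It was assigned to Vgll4 by the nearest TSS. The annotation does not state that this transcript belongs to Vgll4, so the peak is not placed inside that gene. Of 12 target genes of Yap and Taz, 9 had an H3K27ac peak, against 37.5% of all genes, and 8 a Foxp4 peak, against 36.6%. Among them Dlc1 had a top H3K27ac score of 148. The classical targets Ccn1 (listed as Cyr61) and Ccn2 (Ctgf) differed in the peaks assigned to them. Ccn1 had 5 H3K27ac peaks and no Foxp4 peak, and Ccn2 had 3 Foxp4 peaks and no H3K27ac peak. Of the H3K27ac peaks of Ccn1, 2 were promoter peaks, and the highest-scoring one lay upstream, outside the promoter. None of the Foxp4 peaks of Ccn2 was a promoter peak. The highest-scoring Foxp4 peak of Ccn2 was intergenic, 147513 bp upstream of the TSS, with the recurrent score of 34.

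Of the 66 Foxp4 peaks assigned to the 41 genes, 4 overlapped H3K27ac, a share near the 8.21% of the whole Foxp4 list, so nothing about the pathway is read from this count. They lay at Map4k4 (score 28, 888 bp upstream of the TSS, sharing 170 bp with an H3K27ac peak of score 70), at Birc5, a survival gene of dividing cells (score 34, 53 bp upstream, 138 bp, H3K27ac score 109), in intron 1 of Vgll3 (score 24, 131 bp, H3K27ac score 36) and in exon 1 of Limd1 (score 26, 93 bp, H3K27ac score 112). The shared length cannot exceed the width of the narrower peak, so these lengths are not compared with the 516 bp at the Lats2 promoter.

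**Figure D4:**
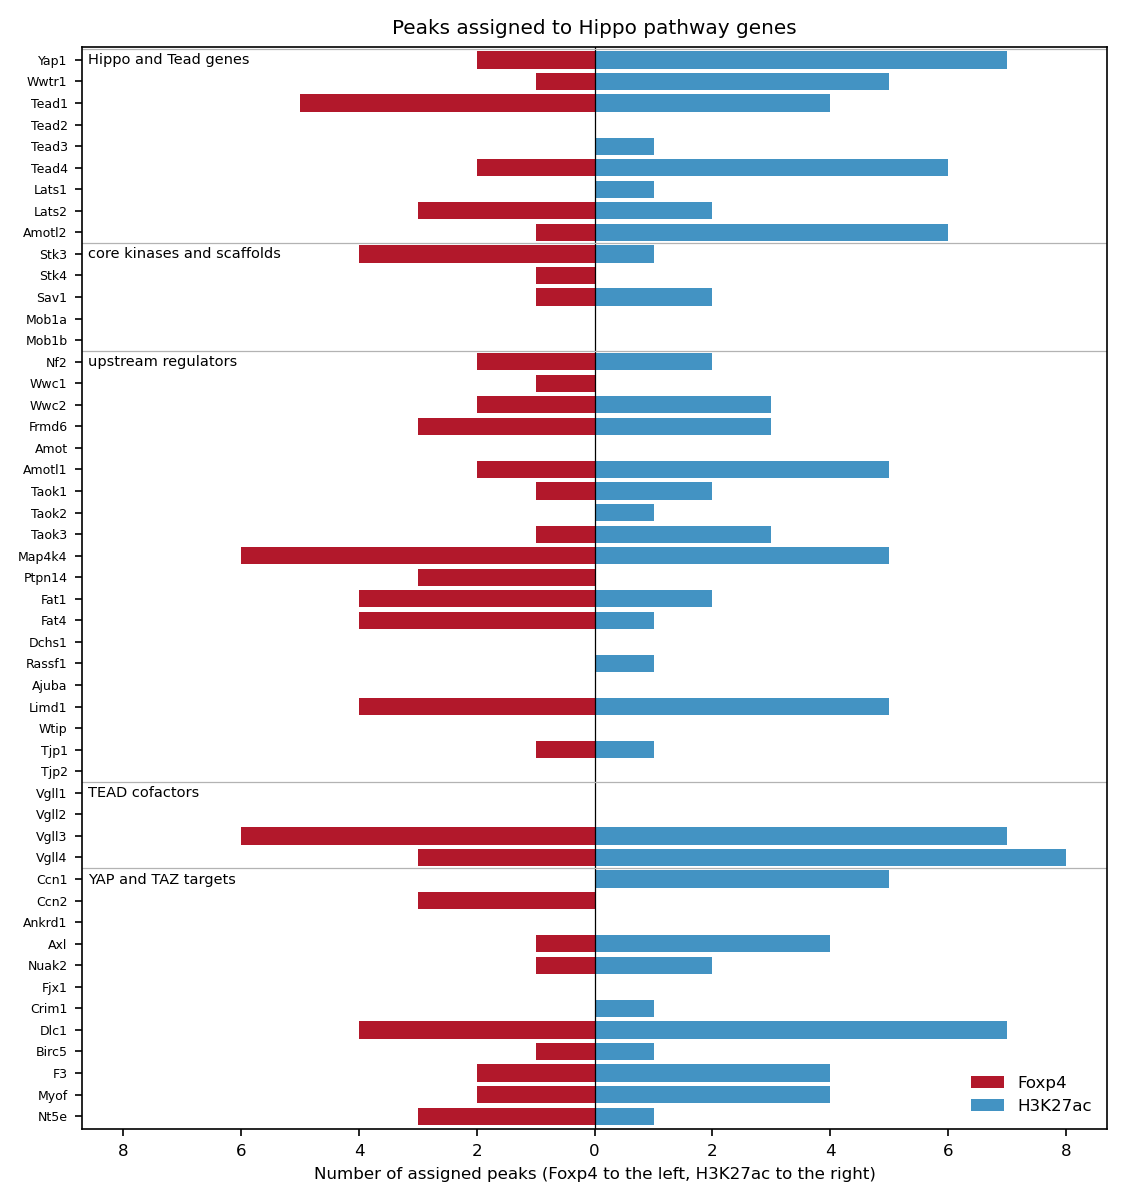
Number of Foxp4 peaks (red, to the left) and H3K27ac peaks (blue, to the right) assigned to the 9 genes (top) and to 41 other genes of the Hippo pathway, by role. Tead1 has 5 Foxp4 peaks and Yap1 7 H3K27ac peaks, and Tead2 is empty on both sides, as are 11 of the 41 other genes.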

How the data were processed

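The authors deposited, for each library, peaks in narrowPeak form annotated by HOMER annotatePeaks.pl on mm10, per the file headers. The submitters' processing notes name Bowtie2, Picard, SAMtools, MACS2 and deepTools 3.3.0 without settings, and the use of the input is not given in the sources used here. Each deposited peak score is a whole number of at least 20 whose formula the files do not state, so scores were compared only within a list. Neither list gives read numbers. The depth of the libraries is therefore unknown, and the number of peaks called depends on it.

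Autosomal, X and Y peaks were kept, which left out 1 mitochondrial Foxp4 peak. A peak belongs to the gene of the nearest TSS, as deposited. Overlap means at least 1 shared bp, and gaps count the bases between peaks. Background genes were protein-coding genes of RefSeq GRCm38.p6 with a curated transcript. No test was run, since each list is 1 library. A Foxp4 score was called recurrent where 100 or more peaks had it and each adjoining whole number had so few that the ratio exceeded 3.

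Members and gene lists were chosen with earlier results of these data known. All members are named. Of the other 41 genes the rule named those with a Foxp4 peak overlapping H3K27ac and the 3 highest-scoring in each list, and further ones were named after their values were seen. The overlap code was tested on simulated data. Sequence outside the promoter windows was not searched. Computation used numpy 2.4.6, pandas 2.3.3 and matplotlib 3.10.9.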

Additional observations from a re-analysis of the deposited data

How the results depend on the processing

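The counts were recomputed under 23 alternatives in all, of which 2 were chosen after seeing the data. In 22 of them the count stayed within 1.5 times. The shares of all protein-coding genes under these alternatives are not given here. The counts therefore do not show whether the differences from all genes held. Where an H3K27ac peak within 1000 bp of a Foxp4 peak was enough, 4 of the 14 Foxp4 peaks counted in place of 1, by construction of the wider rule. The number of genes with a Foxp4 peak ranged from 4 without the recurrent scores to 6, and was 5 in the higher-scoring 50% of the list and 5 by gene span extended by 10 kb. Genes with an H3K27ac peak numbered 8 under every alternative, and those with an H3K27ac promoter peak 7 or 8, Amotl2 being added by a window of 3000 bp or by counting any base of the peak within 1000 bp. No paired analysis was possible because each list is 1 library.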

Other observations

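Some peaks inside the genes were assigned to a neighbour, because its TSS was nearer. Within the span of Amotl2, 3 more H3K27ac peaks, of scores 34, 54 and 29, lay in intron 9, the 3' UTR and at the transcript end and were assigned to Gm5627. With them 63.1% of the span of Amotl2 lay under H3K27ac, against 0.901 to 6.81% for the 7 other genes with a peak. This share depends on the span, and that of Amotl2, 16.3 kb, was the shortest of the 9. The assigned H3K27ac peaks covered 9042 bp at Amotl2 and 5556 bp at Tead4, the next highest. The share over all genes is not given here. Within Wwtr1, a Foxp4 peak of score 37 in intron 6 and an H3K27ac peak of score 40 in intron 4 were assigned to Tm4sf4. Within intron 12 of Tead1, an H3K27ac peak of score 24 was assigned to Rassf10.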
